A study of Rattus norvegicus with 3 samples.

Results

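The small heat shock proteins of muscle and their partner Bag3 were compared in rat soleus, a calf muscle of mostly slow fibres that holds posture, of rats whose muscle had lost its nerve or its load. The genes were chosen by name, as Hspb1, Hspb2, Hspb3, Hspb6, Hspb7, Hspb8, Cryab and Bag3. All 8 were measured, among 10154 genes bright enough to compare, and each was read by the 1 probe set annotated with its symbol alone. By its title the series simulates spaceflight, and its groups were irradiated without interruption for 2 weeks to an absorbed dose of 50 mSv. Group Ct received the irradiation alone, in group DN the muscle had in addition been denervated, and animals of group TS hung by the tail, which takes the load off the hind limbs. The rats were 7 weeks old and of a strain labelled Brown, each group held 6 rats, and the RNA of a group was pooled and read on 1 Affymetrix Rat Gene 1.0 ST array. An unirradiated group is not analysed here, so all comparisons are between irradiated muscles. Since each group is a single array of pooled RNA, neither a spread nor a test can be had, and each difference describes these pools. In pooled tissue, fewer cells of a type and less RNA per cell cannot be told apart.

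Small heat shock proteins share a conserved alpha-crystallin domain and bind unfolding proteins without using ATP, holding them until chaperones that use ATP take over. In striated muscle they sit on desmin filaments, actin and Z-discs, and several are known to be more abundant in slow oxidative than in fast muscle. Bag3 ties small heat shock proteins, above all Hspb8, to Hsp70 and so feeds damaged, tension-bearing proteins such as filamin into chaperone-assisted selective autophagy. The stress-inducible members are targets of the heat shock factor Hsf1, which binds repeats of GAA and its complement TTC.

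The members with such repeats before their annotated start are shown because they include the member with the highest and the one with the lowest DN value relative to Ct. RefSeq promoter windows of the GRCr8 assembly were found for 6 of the 8 genes, and the 250 bases before the start were searched for GAANNTTC and TTCNNGAA, which read the same on both strands. GAANNTTC was found before Hspb8, Bag3, Hspb6 and Hspb1, that is in 4 of 6 windows, and in 7.23% of the 33469 windows in the table. All 4 hold it in the form GAAGTTTC, which 1.22% of windows contain on either strand; this form was noticed after reading the sequences. In the stretches of 28 bases below, written 5′ to 3′ on the gene's own strand, capitals mark the GAANNTTC match. They lie at chr12:45837275-45837302 on the plus strand (Hspb8), chr1:192533318-192533345 on the plus strand (Bag3), chr1:94934213-94934240 on the plus strand (Hspb6), and chr12:26432413-26432440 and chr12:26432393-26432420 on the minus strand (Hspb1, which has 2 matches).
Hspb8: gaagccaggaGAAGTTTCtaggcgcgtg
Bag3: gatgggaccaGAAGTTTCtagccggcca
Hspb6: agtaattattGAAGTTTCtaaataagga
Hspb1: ttcaactagaGAAGTTTCcagatggggg
Hspb1, second match: gatgggggcaGAACCTTCctggccctgc

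The match begins 23 bases before the start in Hspb8, 132 in Bag3, 149 in Hspb6, and 129 and 109 in Hspb1. The Hspb8 start used by the table lies inside its gene record, not at the record's outer end. TTCNNGAA, present in 7.48% of all windows, was found among the members only before Hspb6, beginning at base 239. The core promoter letters TATAAA were found on either strand before Hspb3, Hspb6 and Hspb7 and in 12.9% of all windows. The E-box letters CANNTG occurred in 65.5% of windows and in 5 of the 6, Hspb6 being the exception. A match is a description of letters and not of a bound site.

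**Figure D1:**
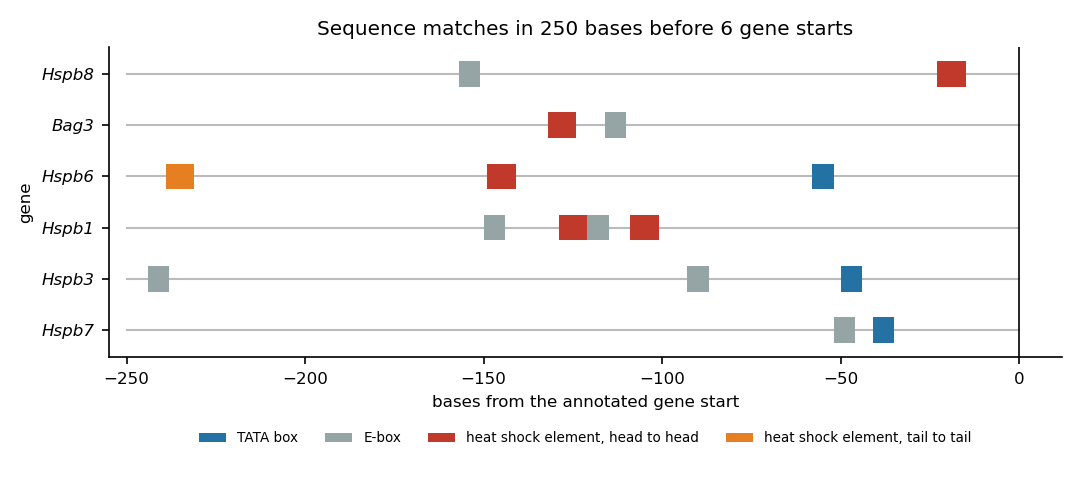
Positions of sequence matches in the 250 bases before the annotated start of 6 genes (x axis, bases from the start; 1 line per gene). Heat shock element letters (red and orange) lie before Hspb8, Bag3, Hspb6 and Hspb1, and none was found in the windows of Hspb3 and Hspb7.

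The 240 bases before the start of Hspb6 and of Hspb3 are given whole, as the 2 members that read lower than Ct in both other groups. Capitals again mark GAANNTTC and TTCNNGAA. Hspb6 lies at chr1:94934132-94934371 on the plus strand and Hspb3 at chr2:47029166-47029405 on the minus strand.
Hspb6: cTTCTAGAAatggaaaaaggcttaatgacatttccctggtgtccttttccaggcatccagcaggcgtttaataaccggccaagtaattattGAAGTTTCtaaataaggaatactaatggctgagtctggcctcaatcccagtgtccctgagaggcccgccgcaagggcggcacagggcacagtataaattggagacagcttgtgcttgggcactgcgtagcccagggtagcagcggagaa
Hspb3: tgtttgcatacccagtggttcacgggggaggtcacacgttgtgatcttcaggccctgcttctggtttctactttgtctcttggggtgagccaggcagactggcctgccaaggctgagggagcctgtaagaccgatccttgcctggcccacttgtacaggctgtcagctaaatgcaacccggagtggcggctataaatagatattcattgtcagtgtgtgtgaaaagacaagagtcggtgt
Hspb6 carried matches to both arrangements and Hspb3 to neither. Both genes read lower than Ct in both comparisons. A link between these letters and the differences was not tested.

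In denervated soleus the family split. Hspb8 read 2.03-fold higher than in Ct, Hspb6 read 2.77-fold lower and Hspb3 2.14-fold lower, and the other 5 members differed by less than 1.5-fold. Past 1.5-fold, 4.93% of all 10154 genes were higher in DN and 5.53% were lower, and 2.24% were past 2-fold in each direction. Among the members, 1 was higher and 2 were lower at either limit. The median difference over the 8 members was -0.21 (log2), beside 0.00 over all genes, and the members spanned 2.49 from lowest to highest. DN and Ct read exactly alike in 42.9% of all genes, as the median polish of few arrays allows, but in none of the members.

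In suspended soleus Hspb6 and Hspb3 were again the lowest members, each 1.86-fold below Ct, and no member was at least 1.5-fold higher. Past the same limit, 2.68% of all genes were lower in TS and 5.89% were higher. At the 2-fold limit no member was called in TS, beside 0.689% of genes lower and 1.37% higher. The median over the members was -0.09 and over all genes 0.02, and the members spanned 1.35. Over the genes compared, the median of the TS array was 0.13 above that of Ct, so each TS minus Ct value falls by 0.13 when the arrays are centred. Over all probe sets the medians were closer, at 6.32 in Ct and 6.35 in TS. Removing a loess trend moved some members the other way, such as Hspb1 from 0.34 to 0.44, and lowered others, such as Hspb3 to -0.95. Both comparisons use the same Ct array, so the values in DN and TS are given side by side and are not independent of each other.

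**Figure D2:**
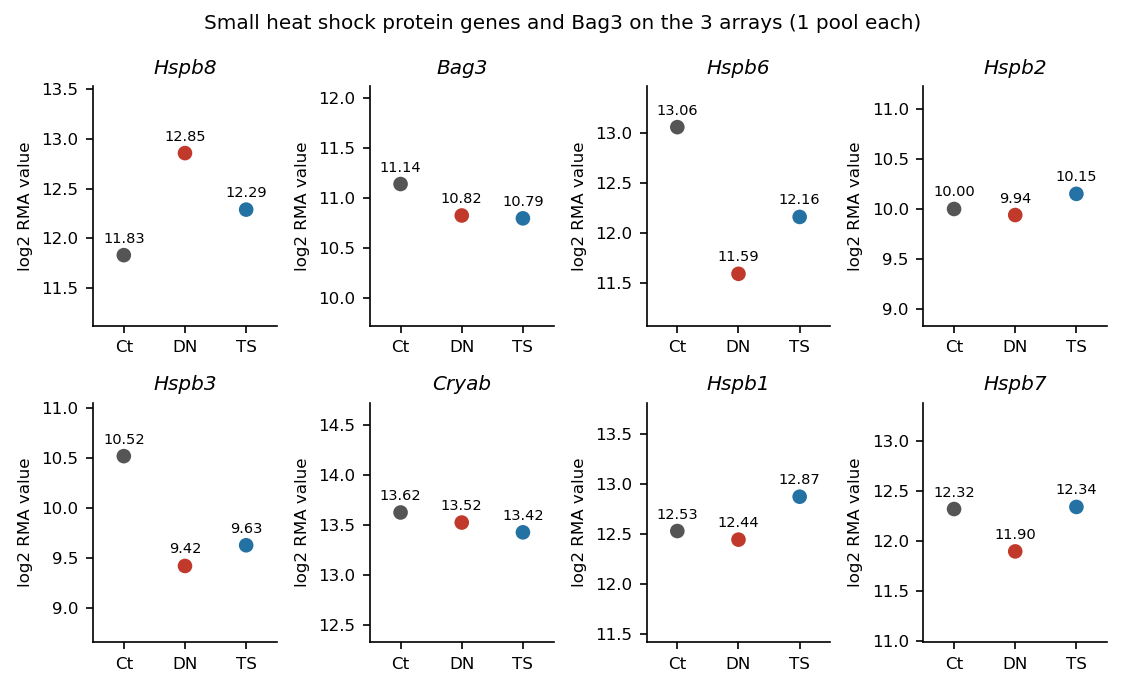
Log2 expression value (y axis, the same span of 2.4 in each panel) of the 8 genes on the Ct, DN and TS arrays, 1 point per array with no error bar because each group is 1 pool. Hspb8 is highest in DN, Hspb6 and Hspb3 are highest in Ct, and the remaining genes keep within narrower ranges.

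Hspb8, also called Hsp22, is the small heat shock protein bound most tightly by Bag3. It read 11.83 in Ct, 12.85 in DN and 12.29 in TS, on the log2 scale of all values given here. The denervated pool was thus highest, the control pool lowest and the suspended pool between them. DN minus Ct was 1.02, which only 218 of the genes compared exceeded, and TS minus Ct was 0.46, a 1.37-fold difference that 10.2% of genes exceeded. As deposited and under 4 other scalings the DN difference ran from 1.01 to 1.09 and the TS difference from 0.32 to 0.53. The alternatives of filter and probe set choice could not change a member, since each has 1 probe set and passed every filter.

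Bag3 did not read higher beside its partner. It read 11.14 in Ct, 10.82 in DN and 10.79 in TS. The control pool was the highest and the other pools lay within 0.03 of each other. DN minus Ct was -0.31 and TS minus Ct was -0.34, differences of 1.24-fold and 1.27-fold that stayed short of the limit under every scaling tried. The ratio of Hspb8 to Bag3 in the values as deposited, which centring of the arrays leaves unchanged, was 2.52 times that of Ct in DN and 1.74 times that of Ct in TS.

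Hspb6, or Hsp20, is a phosphoprotein of cardiac, skeletal and smooth muscle that acts on actin filaments and also binds Bag3. It read 13.06 in Ct, 11.59 in DN and 12.16 in TS. The order was that of Hspb8 turned around, with the control pool highest and the denervated pool lowest. DN minus Ct was -1.47, and only 86 of the genes compared, or 0.847%, read lower against Ct. TS minus Ct was -0.90, with 100 genes or 0.985% lower. The DN difference ran from -1.48 to -1.44 and the TS difference from -1.03 to -0.81 over the same scalings. Relative to Hspb8 on the same array, Hspb6 stood at 0.178 times its Ct ratio in DN and at 0.391 times in TS, in the values as deposited. Hspb6 was the lowest and Hspb8 the highest member in both groups, so this pair is by construction the widest of the 28 pairs of members. In TS the ratio of Hspb3 to Hspb8 changed about as much, to 0.393 times that of Ct. The Ct value of Hspb6 lies near the upper end of its array, whose highest value was 13.99, where differences can be compressed. In the GRCr8 table the record of Hspb6 overlaps that of Lin37. Whether its probe set takes up signal from Lin37 is not known from the sources used here.

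Hspb3 and Hspb2 are known to assemble with each other into one complex during muscle differentiation, and their messages did not read alike here. Hspb3 read 10.52 in Ct, 9.42 in DN and 9.63 in TS. The control pool stood apart from the others, which differed by 0.21. DN minus Ct was -1.10 and TS minus Ct was -0.89, with 1.75% and 1.0% of genes lower. Both were past 1.5-fold under every scaling tried. Hspb2, also known as a binding partner of the myotonic dystrophy kinase, read 9.996 in Ct, 9.94 in DN and 10.15 in TS. Its differences were -0.06 and 0.15, both short of the limit. The ratio of Hspb2 to Hspb3 was therefore 2.05 times that of Ct in DN and 2.06 times in TS, nearly the same in both groups.

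Cryab, or alpha-B-crystallin, guards desmin and is next to Hspb2 in gene order in the GRCr8 table, where the records of both genes overlap. Cryab read 13.62 in Ct, 13.52 in DN and 13.42 in TS, a span of 0.20 close to the top of the scale. The differences were -0.10 in DN and -0.20 in TS. The neighbouring genes thus had small differences in both groups, with unlike signs in TS (0.15 for Hspb2 and -0.20 for Cryab). These signs held under the scalings tried, in some by little. Hspb2 stood at 0.018 with arrays centred and Cryab at -0.055 with the loess trend removed. Whether their probe sets share signal is not known from the sources used here.

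Hspb1, the Hsp27 of human cells and Hsp25 of rodents, protects actin and is strongly stress-inducible. It read 12.53 in Ct, 12.44 in DN and 12.87 in TS. The suspended pool was the highest, by 0.34 or 1.27-fold over Ct, and DN minus TS was -0.43, a difference of 1.35-fold. Hspb7, a heart and muscle form that binds filamin C, read 12.32 in Ct, 11.90 in DN and 12.34 in TS. Here the denervated pool was the low one, at -0.42 against Ct, while TS minus Ct was 0.02 and turned to -0.11 when the arrays were centred.

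**Figure D3:**
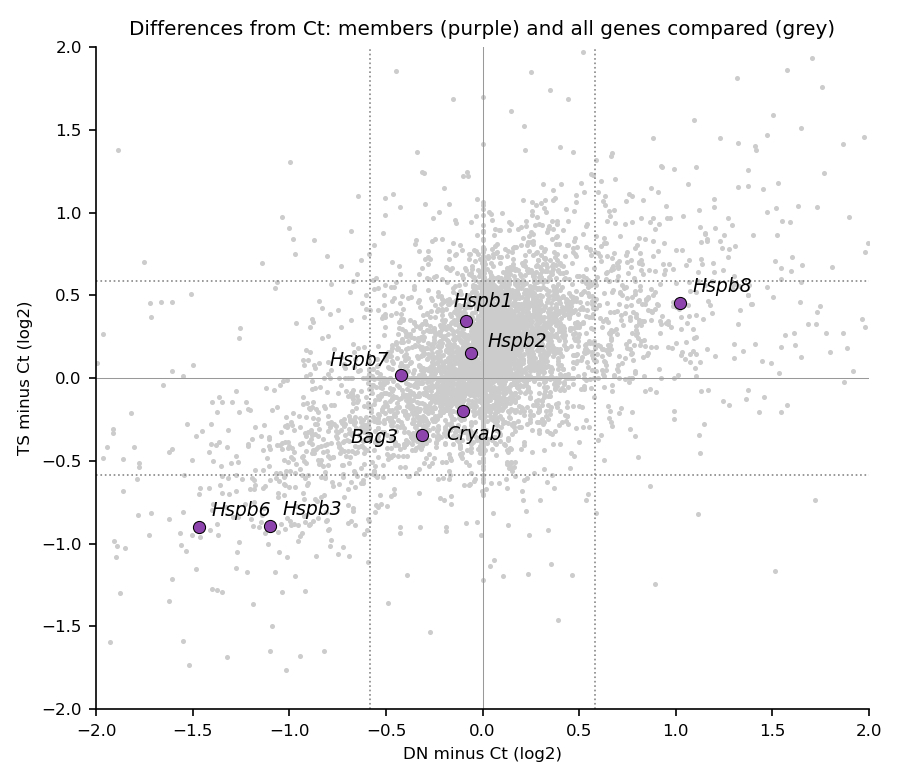
DN minus Ct (x axis, log2) against TS minus Ct (y axis, log2) for the 8 members (purple, labelled) and all genes compared (grey; 104 genes outside the range of 2 in each direction are not drawn). Dotted lines mark 1.5-fold; both axes subtract the same Ct array, which by itself tilts the cloud. Hspb6 and Hspb3 lie at the lower left and Hspb8 at the right; the TS sign of Hspb7 (0.02) turns when arrays are centred.

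Set directly against each other, DN and TS differed by less than 1.5-fold in all 8 members, beside 3.2% of genes past that limit with DN above TS and 5.93% with DN below. Past 2-fold the shares of all genes were 1.2% and 1.74%. Hspb8 came closest from above, at 0.57 or 1.48-fold, and Hspb6 from below, at -0.57 or 1.48-fold lower. With the arrays centred, Hspb8 stood at 0.69 and passed the limit. Hspb7 (-0.44) and Hspb1 (-0.43) followed, with Hspb2 and Hspb3 both at -0.21, Cryab at 0.10 and Bag3 at 0.03. The median over the members was -0.21, beside 0.00 over all genes.

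**Figure D4:**
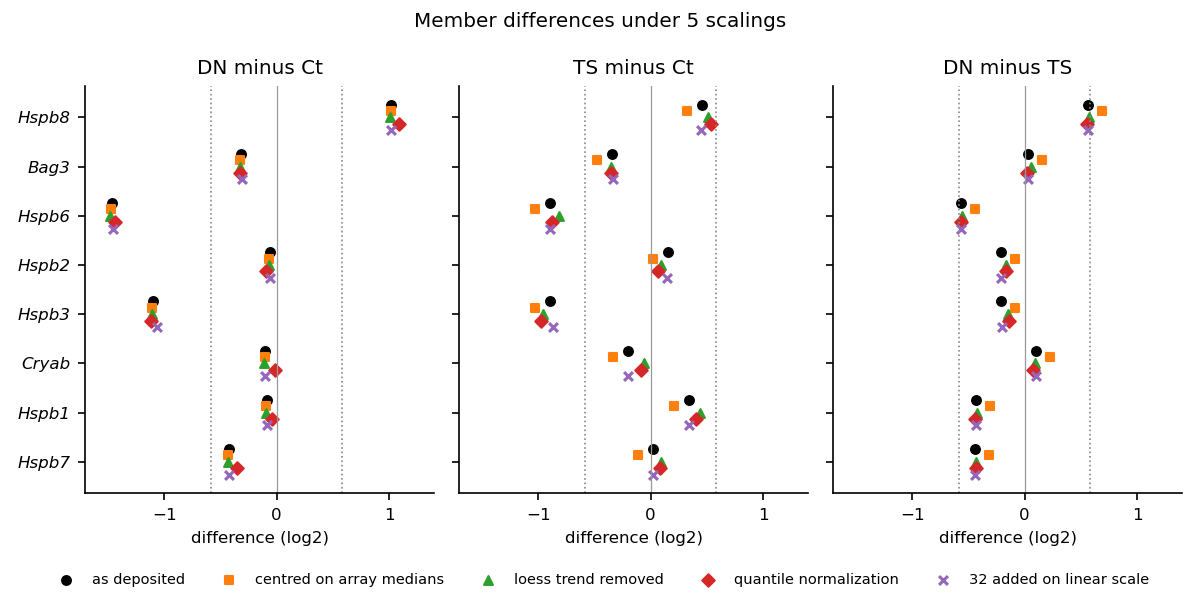
Difference of each member (x axis, log2) in the 3 comparisons as deposited and under 4 other scalings; dotted lines mark 1.5-fold. The positions of Hspb8, Hspb6 and Hspb3 in DN minus Ct hardly move; centring lowers all TS minus Ct values by 0.13, takes Hspb7 below 0 there and carries Hspb8 past the limit in DN minus TS.

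The genes whose pair of differences lay nearest to those of the members past the limit were sought over the 3 arrays, by the distance in DN minus Ct and TS minus Ct. For Hspb6 they were Ugp2, an enzyme of glycogen synthesis (-1.46 in DN and -0.91 in TS, at a distance of 0.016), Lrrc52, a potassium channel subunit (-1.41 and -0.92), and Ldhb, the lactate dehydrogenase subunit of oxidative tissue (-1.50 and -0.95). Lrrc52 was dim, at 5.50 in DN, under the filter limit of 5.72 that applies to the mean. For Hspb3 they were the cytochrome oxidase subunit Cox7b (-1.06 and -0.93), the mitochondrial acyl-CoA synthetase Acsf2 (-1.15 and -0.87) and the slow myosin light chain Myl2 (-1.13 and -0.94). For Hspb8 they were Cdc42ep4, an effector of the GTPase Cdc42 (1.01 and 0.46), the kinase Oxsr1 (1.01 and 0.47) and the deubiquitinase Usp20 (0.99 and 0.46).

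Partners of Bag3 in chaperone-assisted selective autophagy stayed close to Ct. None of 8 compared genes was past 1.5-fold in either direction in DN or TS, and the medians were 0.06 and 0.01. Of all genes, 4.93% were higher and 5.53% lower in DN, and 5.89% and 2.68% in TS, so none of 8 is not unusual. The same shares apply to the list counts against Ct that follow. Vps16 and Stx7 read exactly alike on all 3 arrays, and Vps18 in Ct and DN, ties of the kind that median polish allows. The constitutive Hsp70 gene Hspa8, which Bag3 recruits, read 13.60 in Ct, 13.69 in DN and 13.47 in TS. The ubiquitin ligase Stub1 differed by 0.15 in DN and 0.29 in TS, the autophagy receptor Sqstm1 by 0.09 and 0.01, and the autophagosome gene Map1lc3b by 0.25 and 0.01. Hspb8 was past the limit in DN, and no compared partner of this list was. Synpo2 and Flnc were not analysed here.

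Of the other 5 BAG genes, 1 was past the limit against Ct, and in DN minus TS 1 was higher and 1 lower. Bag2, a cochaperone that holds back the ligase Stub1, stood at -0.73 in DN and 0.31 in TS, and at -1.04 in DN minus TS. Bag1, a nucleotide exchange factor of Hsp70, stood at 0.44 in DN and -0.17 in TS, and at 0.61 in DN minus TS. The list medians were 0.00 and 0.13. The remaining alpha-crystallin relatives were dim: Cryaa read 5.93 on all 3 arrays, Hspb9 and Odf1 lay under the filter limit, and Hspb11 was not analysed here.

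The heat shock factors and their binding proteins held no member past 1.5-fold from Ct among 6, with medians of 0.00 in DN and 0.05 in TS. Hsf1 itself read 8.64 in Ct, 8.56 in DN and 8.71 in TS. Hsf2 stood at 0.00 and -0.39, and the Hsp70 nucleotide exchange factor Hspbp1 at -0.35 and 0.54, and at -0.89 in DN minus TS, where it was the 1 gene of the list past the limit. Message levels of a factor do not show its activity, and Hsp70 genes known as its inducible targets, Hspa1a and Hspa1b, share a probe set with Hspa1l and were not compared.

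The large chaperones mostly read near Ct as well. Of 11 Hsp70 and Hsp110 genes, none was higher past 1.5-fold, while Hspa2, the testis-enriched form, was lower in both groups (-0.81 and -0.86) and the mitochondrial Hspa9 was lower in DN (-0.60, against -0.30 in TS); the medians were 0.01 and 0.00. Of 10 Hsp90 genes and cochaperones, the 2 past the limit were lower in DN, the immunophilin Fkbp4 (-0.88, against -0.15 in TS) and the myosin-chaperone partner Smyd1 (-0.59, against 0.06), with medians of 0.00 and 0.05. Of 14 Hsp40 genes, Dnajc3 of the endoplasmic reticulum was the 1 past the limit (0.13 in DN and 0.64 in TS). The TS call of Dnajc3 ended with arrays centred (0.51), the loess trend removed (0.56) or quantile normalization (0.55). The medians of the Hsp40 genes were 0.03 and 0.01. Dnajb4 stood at -0.49 and -0.19, and the Hsf1 target Dnajb1 at 0.07 and 0.06. Of 7 mitochondrial chaperones and proteases, Clpx (-0.88 in DN, -0.18 in TS) and Hspa9 were lower in DN, Hspd1 stood at -0.10 and 0.00, and the medians were -0.27 and 0.00. The DN calls of Hspa9 (-0.56 with quantile normalization) and Smyd1 (-0.58 with 32 added on the linear scale) were at the limit and ended there.

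**Figure D5:**
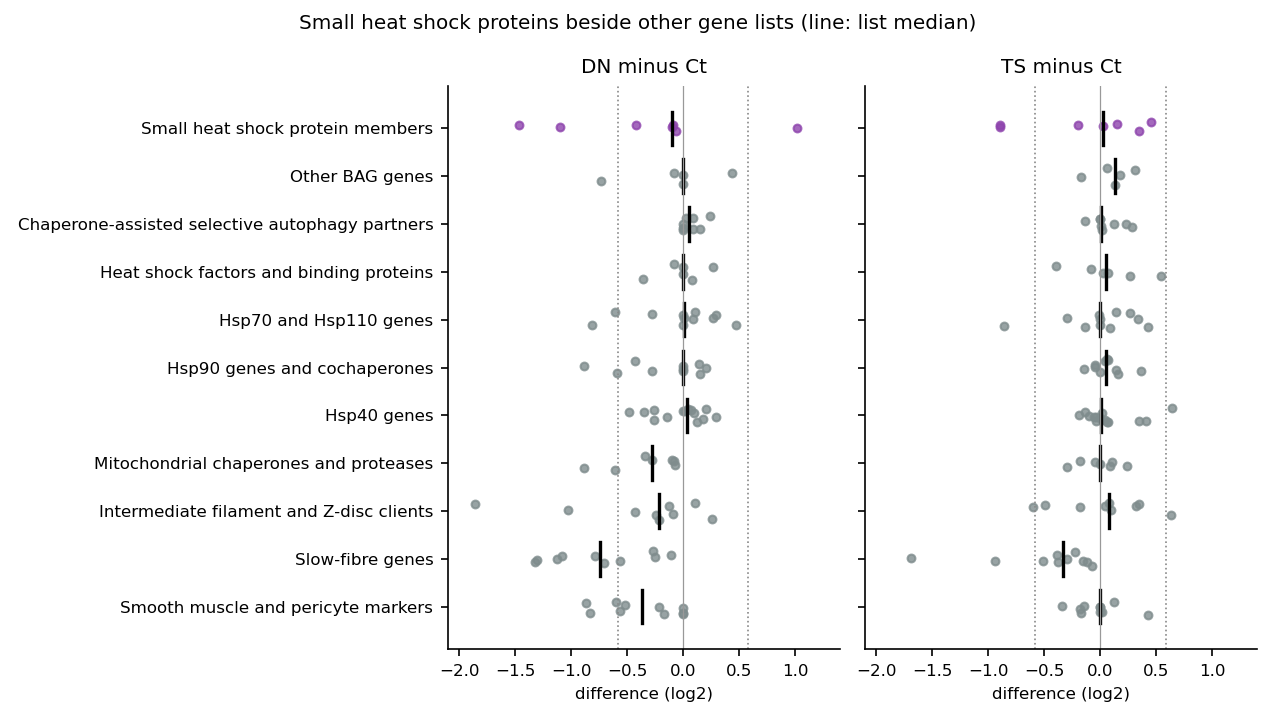
Differences from Ct (x axis, log2) of the small heat shock protein genes (purple) and of 10 other gene lists (grey), 1 point per gene, with the list median as a black line and dotted lines at 1.5-fold. Among the lists drawn, Hspb8 is the single gene above the limit in DN minus Ct. Lists not drawn hold others, such as 7 of 10 fast-fibre and 3 of 7 adipocyte genes. Medians close to 0 in TS minus Ct change sign when arrays are centred.

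Proteins that small heat shock proteins guard were read beside them. Of 9 intermediate filament and Z-disc genes, 2 were at least 1.5-fold lower in DN, the Z-disc proteins Ldb3 (-1.86) and Myot (-1.03), and the median was -0.21. In TS Myot was lower (-0.60, but -0.49 with the loess trend removed or with quantile normalization, short of the limit) and the muscle LIM protein gene Csrp3 higher (0.63), a call that centring ended, with a median of 0.08. Desmin (Des), the filament that Cryab protects, read 12.82 in Ct, 12.61 in DN and 13.17 in TS. The suspended pool was the highest and the denervated the lowest, with differences from Ct of -0.21 in DN and 0.35 in TS. As deposited, Hspb1, Hspb2 and Hspb7 had the same order; with arrays centred, Hspb7 lost it and the TS minus Ct value of Hspb2 was 0.018.

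Fibre-type genes also differed between the pools, and their part in the member differences was not tested. Lower values past 1.5-fold were read for 6 of 10 slow-fibre genes in DN and for 2 in TS, with medians of -0.75 and -0.33, beside Hspb6 and Hspb3. The summed linear level of this list was 87421 in Ct, 57562 in DN and 69997 in TS. The main slow myosin Myh7 stood at -0.56 and -0.38, Myh7b at -1.32 and -1.69, and the slow light chain Myl3 at -1.30 and -0.51. Higher values past 1.5-fold were read for 7 of 10 fast-fibre genes in DN and for 8 in TS, with medians of 1.34 and 1.45. Their summed level was 24385 in Ct, 42958 in DN and 51720 in TS, with Myh4 at 2.02 and 5.72 and Pvalb at 4.34 and 0.45. The lowest of the list were Atp2a1 in DN (-0.43, against 1.04 in TS) and Myl1 in TS (-0.10, against 0.16 in DN). Markers of the labelled slow muscle were present, with all 10 slow-fibre genes above the filter limit and Myh7 at 13.62 in Ct. The 10 fast-fibre genes compared were above that limit too, so passing it does not by itself mark slow muscle.

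Smooth muscle cells also express Hspb6, Hspb1 and Cryab, and markers of vessels and other cells were read for that reason. Of 10 smooth muscle and pericyte markers, 3 were at least 1.5-fold lower in DN and none in TS, with medians of -0.37 and 0.00 and a summed linear level of 11730 in Ct, 10161 in DN and 11098 in TS. The pericyte markers Kcnj8 (-0.87 and -0.34) and Cspg4 (-0.83 and 0.42) had the largest differences. Of the same list, Rgs5 stood at -0.22 and -0.18 and Abcc9 at 0.00 in both groups. Of the smooth muscle genes, Tagln stood at -0.60 in DN (-0.58, short of the limit, with 32 added on the linear scale) and -0.17 in TS, Myh11 at -0.57 and 0.00, Cnn1 at -0.51 and -0.01, and the actin Acta2 at 0.00 and 0.02. Of 8 endothelial markers, 2 were lower in DN and 1 in TS, with medians of -0.30 and -0.19. Their sums were 7087, 5431 and 6096 in Ct, DN and TS. Kdr stood at -0.87 and -0.73 and Flt1 at -0.70 and -0.11. The part of these markers in the member differences was not tested.

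The other cell types differed as follows. Tendon markers had 4 of 5 lower in both groups and 1 higher in DN, with medians of -1.19 and -1.22, sums of 3841, 2052 and 1875, and Chad at -1.62 and -1.35 and Tnmd at -1.61 and -1.22. Adipocyte markers had 3 of 7 higher in both groups, with medians of 0.51 and 0.52 and sums of 3623, 5113 and 4230. Adipoq stood at 2.10 and 1.62 and Cfd at 1.32 and 1.42. Fabp4, the brightest of the list at 11.38 in Ct, had its lowest differences, at -0.02 in DN and -0.43 in TS. Macrophage markers had none of 7 past the limit in DN and 3 higher in TS, with medians of 0.28 and 0.57, sums of 4254, 4929 and 6061, and Cd163 at 0.31 and 1.17 and Mrc1 at 0.44 and 0.95. Fibroblast markers had none of 7 past the limit in DN and 1 higher in TS, with medians of 0.00 and 0.00, sums of 31489, 32021 and 30019, and Pdgfra at 0.40 and 0.81 and Dpt at 0.17 and -0.32. Schwann cell and nerve markers had 1 of 6 higher in each group, with medians of 0.00 and 0.25 and sums of 3357, 3741 and 4181. Cnp stood at 0.79 and 0.51 and Prx at -0.31 and 0.67. The TS call of Prx ended with arrays centred (0.53), quantile normalization (0.56) or 32 added on the linear scale (0.53). The part of these markers in the member differences was not tested.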

How the data were processed

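Soleus RNA pooled from 6 rats per group was read on 3 arrays, 1 each for Ct, DN and TS. The deposited log2 values were made by the authors with Affymetrix Expression Console by RMA in a core-exon analysis, per the labels' descriptions and, for the tool, the submitters' processing notes. The base of the logarithm is not given in the sources used here and was read as 2; folds rest on it. Tool versions and the genome build are likewise not given.

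Of 29170 probe sets, 15310 had 1 symbol in the platform annotation, 323 several and 13537 none; only the first were used, by the brightest per gene. Of 14506 genes, the dimmest 30% by mean were left out, which leaves 10154 genes. The symbols of all 8 members were unchanged in the GRCr8 table. Differences of log2 values were counted at 1.5-fold (0.58) and 2-fold, with no p-value; the number of arrays limits the precision. Summed list levels are sums of 2 to the power of the value.

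Besides the members and the nearest 3 genes of each called member, the rule named 2 genes of each of 20 lists by largest difference from Ct, and Hspa8, Stub1, Sqstm1, Hsf1, Dnajb1, Hspd1, Des, Myh7 and Myh4 in every case. Myl2 was named as a nearest gene. Acta2, Tagln, Myh11, Cnn1, Csrp3, Rgs5, Abcc9, Fabp4, Atp2a1 and Myl1 were named after their values were seen. Members and lists were chosen with earlier results of these data known. Alternatives were centring on array medians, quantile normalization, removing a loess trend (span 0.3), adding 32 before taking logs, means of probe sets, no filter, a filter at the 50th percentile, limits of 0.32 (log2) and 2-fold, means, and leaving out Bag3. The procedure was tested on simulated data. Python 3.11.15, numpy 2.4.6, pandas 2.3.3, statsmodels 0.14.6 and matplotlib 3.10.9 were used.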

Additional observations from a re-analysis of the deposited data

How the results depend on the processing

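No paired analysis was possible because each group is 1 array. Under every scaling tried, Hspb6 and Hspb3 stayed past 1.5-fold with the same sign in DN minus Ct and TS minus Ct. So did Hspb8 in DN minus Ct. The alternatives of filter and probe set choice do not test this, since each member has 1 probe set and passed every filter. Among the member differences, only Hspb7 in TS minus Ct changed sign (-0.11 with arrays centred). The median over the members was -0.32 in DN minus Ct as a mean and -0.10 without Bag3; in TS minus Ct it was 0.0209 without Bag3, 0.0173 with the loess trend removed and -0.22 with arrays centred, so its sign is not settled; in DN minus TS it was -0.0835 with arrays centred. At a 2-fold limit 0 members were lower in TS than in Ct. At the lower limit of 0.32 (log2), 1 member was higher and 3 were lower in DN than in Ct. In TS against Ct 2 were higher and 3 lower, and in DN against TS 1 was higher and 3 were lower. The shares of all genes were not counted at this limit, so whether these counts are unusual is not known. Centring made 1 member higher in DN than in TS. With 1 pool per group no spread between animals can be given, and values near the top of the scale may be compressed.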
